A study of Mus musculus with 16 samples.

Results

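The Fos and Jun genes encode the main subunits of AP-1, a transcription factor. Fos, Fosb, Fosl2, Jun, Junb and Jund were followed here in the mouse dorsal hippocampus, with Atf3, a factor that can pair with Jun. These 7 members were taken by symbol, through their Ensembl gene identifiers, from a table of 35328 genes. All 7 passed the count filter that left 17830 genes for testing. RNA-Seq was done on 16 C57Bl6/J mice in 4 groups of 4. Home cage water and home cage caffeine mice were taken at rest, and learning water and learning caffeine mice were taken 1 hour after their final trial in the Morris water maze, a spatial task that depends on the hippocampus, in which they had trained for 3 days. Caffeine was given in the drinking water at 0.3 g/L for 2 weeks, beginning when the mice were 8 to 9 weeks old, and control mice drank water. The learning groups were set against mice in the home cage with no group that only swam, so swimming, handling and learning cannot be told apart. Nothing in the labels links mice across groups.

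AP-1 proteins bind DNA as dimers joined by a leucine zipper. Jun proteins pair with each other or with Fos proteins, whereas Fos proteins need a Jun partner. In neurons, synaptic activity and calcium entry act through kinases on the factors CREB and SRF, which switch on Fos, Fosb and Junb within minutes as immediate early genes. Fos RNA is short-lived and is widely used as a mark of recently active neurons, and the hippocampus expresses it after new experience.

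The 7 genes lie on 6 chromosomes of the mouse genome (build GRCm38, GENCODE M21 annotation) and all are protein coding. Fos (ENSMUSG00000021250) spans chr12:85473890-85477273 on the plus strand, Fosb (ENSMUSG00000003545) chr7:19302696-19310051 on the minus strand and Fosl2 (ENSMUSG00000029135) chr5:32135801-32157842 on the plus strand. Jun (ENSMUSG00000052684) spans chr4:95049034-95052222 on the minus strand and is a single exon. Junb (ENSMUSG00000052837) spans chr8:84974484-84978718 on the minus strand, Jund (ENSMUSG00000071076) chr8:70698949-70700616 on the plus strand, and Atf3 (ENSMUSG00000026628) chr1:191170296-191218039 on the minus strand.

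The stretch of 150 bases before the transcription start is shown for 5 members, namely the 4 in which the core motif of the cAMP response element was found and Jun, in which it was not. Fosl2, which was called after learning under both treatments and lacks that motif, is not shown because its window lies in an exon of the GENCODE model. All are RefSeq sequence of build GRCm38.p6, written 5′ to 3′ on the strand of the gene and ending at the base before the start. The windows are chr12:85473740-85473889 (plus) for Fos, chr7:19310046-19310195 (minus) for Fosb, chr8:84978749-84978898 (minus) for Junb, chr1:191183334-191183483 (minus) for Atf3 and chr4:95052223-95052372 (minus) for Jun. Capitals mark TGACG, the core of the cAMP response element to which CREB binds, or its complement CGTCA, and also TATAAA in Fos and TGACATCA, a variant AP-1 site, in Jun.
Fos: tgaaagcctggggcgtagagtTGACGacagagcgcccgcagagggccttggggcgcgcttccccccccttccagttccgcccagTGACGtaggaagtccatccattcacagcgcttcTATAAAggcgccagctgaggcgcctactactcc
Fosb: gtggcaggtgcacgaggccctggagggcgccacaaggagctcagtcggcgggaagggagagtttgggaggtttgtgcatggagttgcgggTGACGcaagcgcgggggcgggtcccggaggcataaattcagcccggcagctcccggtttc
Junb: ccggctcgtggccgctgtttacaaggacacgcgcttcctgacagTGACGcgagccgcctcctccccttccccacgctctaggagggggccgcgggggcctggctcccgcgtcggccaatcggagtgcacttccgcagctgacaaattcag
Atf3: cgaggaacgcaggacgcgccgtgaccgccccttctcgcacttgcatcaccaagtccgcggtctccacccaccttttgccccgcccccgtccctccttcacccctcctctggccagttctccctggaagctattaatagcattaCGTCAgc
Jun: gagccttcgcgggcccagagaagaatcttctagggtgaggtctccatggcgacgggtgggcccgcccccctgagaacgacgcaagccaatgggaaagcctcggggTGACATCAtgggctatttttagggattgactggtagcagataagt

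Within 250 bases before the start, TGACG was found on either strand in Fos, Fosb, Junb and Atf3 and was not found in Fosl2, Jun or Jund. Fos held it at 2 places, bases -129 to -125 and -66 to -62 counted back from the start, Fosb at -60 to -56, Junb at -106 to -102 and Atf3 on the opposite strand at -7 to -3. The same letters stood in 17.8% of the 32851 mouse promoter windows, so a match is common. The full palindrome TGACGTCA, which contains TGACG, stood in 1.55% of windows and the AP-1 site TGACTCA in 4.46%, and neither was in the window of a member. TGACATCA stood in 2.93% of windows and, of the 7, in that of Jun at -45 to -38. TATAAA stood in 12.4% and was found in Fos at -33 to -28. CCAAT stood in 33.8% of windows, Jun at -65 to -61 and Junb at -36 to -32 included. The CArG box, the motif of SRF, stood in 1.47% and in the 250-base window of no member. Sequence farther upstream was not searched, so a motif beyond 250 bases would be missed. The motifs were chosen after the sequences had been seen and are a description. RefSeq starts Junb upstream of the GENCODE gene, at base 84978748 against 84978718, and starts Fosb, Fosl2 and Atf3 inside it. Jund starts much farther upstream in RefSeq, at base 70697739 against 70698949 in GENCODE. The window of Jund therefore does not adjoin the GENCODE start, and sequence directly before that start was not searched.

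Libraries held 23078094 to 49949281 counted reads, and their group medians ran from 30203502.5 in home cage water mice to 42497897.5 in learning caffeine mice. Values are given as normalized counts (CPM), which are read counts divided by the TMM-scaled size of each library. Atf3 had 15 to 105 reads a mouse, Fos 40 to 682, Fosb 143 to 699 and Jun 2066 to 5551. Markers of neurons, dentate granule cells and CA1 pyramidal cells were present in every group, and neuron markers summed to 5604 to 6748 CPM over the 16 mice. Choroid plexus markers stood apart. Their sum over 8 genes was 308 to 2351 CPM in home cage water, 190 to 499 in home cage caffeine, 162 to 434 in learning water and 115 to 203 in learning caffeine mice, with none of the 8 at 0, and their part in the results below was not tested. Learning water replicate 24 also stood apart, with oligodendrocyte markers at 11141 CPM against 4752 to 5488 in the rest of its group, as did home cage caffeine replicate 17 with a mitochondrial share of 4.49%. Without either of these mice the same numbers of members were called in both learning comparisons, 5 under water and 4 under caffeine, and without home cage water replicate 20, the highest in choroid plexus markers, 3 and 4. In this bulk tissue, a change in the number of expressing cells and a change in RNA per cell cannot be told apart.

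At rest, the Jun family was far more abundant than the Fos family. Per kilobase of exon, the home cage water level was 49.8 ± 4.86 CPM per kb (SD, n = 4) for Jund, which is expressed in most cells without stimulation, 29.7 ± 5.42 for Jun and 13.8 ± 1.31 for Junb. Fosl2, a Fos relative without a strong activation domain, followed at 3.20 ± 0.51, then Fos at 1.06 ± 0.32, Fosb at 0.824 ± 0.094 and Atf3, a stress-inducible factor that can pair with Jun, at 0.424 ± 0.135 CPM per kb. The mice of neighbouring genes in this order did not overlap, except those of Fos and Fosb. Jund stood above 95.7% of the tested genes and Atf3 above 17.4%.

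After learning, Fos moved ahead of Fosl2 in this order per kb. In CPM, not divided by length, Fosl2 stayed above Fos, at means of 44.8 against 13.3 in learning water mice. In learning caffeine mice the means were 53.0 and 14.2 CPM. Per kb, the level of Fos was 5.65 ± 0.91 CPM in learning water and 6.05 ± 1.14 in learning caffeine mice. That of Fosl2 was 4.63 ± 0.54 and 5.48 ± 0.60, and the ranges of these neighbours overlapped in both groups. Fos stood above 30.0% of tested genes in home cage water, 39.3% in home cage caffeine, 59.9% in learning water and 61.6% in learning caffeine mice. Per kb, Jund remained the highest member in all 4 groups, and its range overlapped that of Jun in learning water mice alone. In home cage caffeine mice the ranges of Fosl2 and Fos overlapped.

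**Figure D1:**
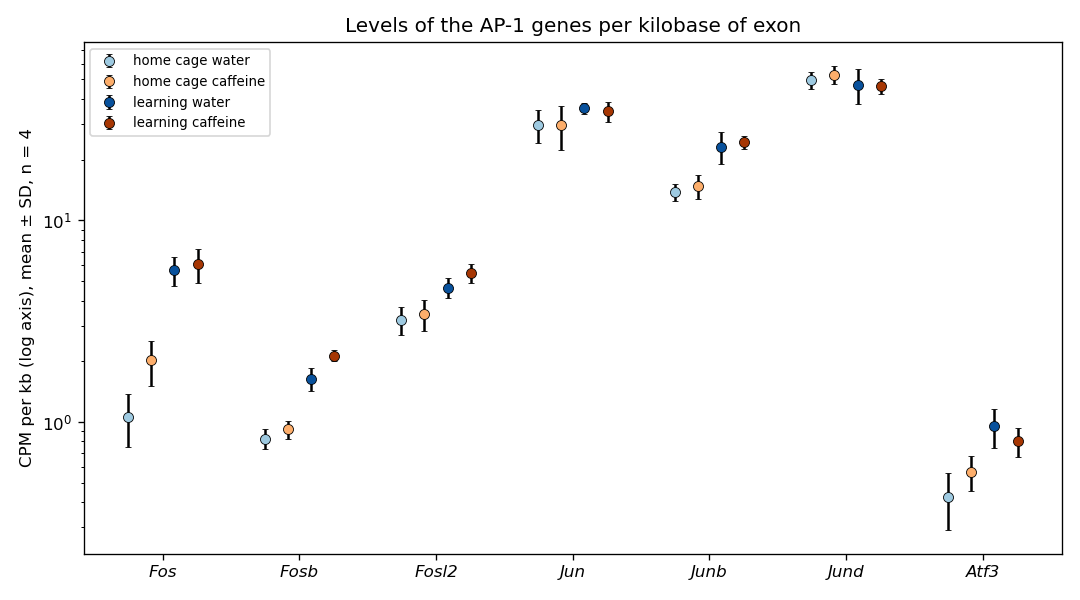
Level of each AP-1 gene per kilobase of exon (CPM per kb, log axis), mean ± SD of 4 mice for each of the 4 groups. Jund, Jun and Junb lie above the other members in every group, and Fos passes Fosl2 in the learning groups, at 5.65 and 6.05 CPM per kb. The order depends on the exon union lengths used, and in CPM, not divided by length, Fosl2 stayed above Fos.

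Learning was first compared with the home cage in water-treated mice. A gene was called when its p from edgeR's quasi-likelihood test, adjusted over the 17830 genes by Benjamini-Hochberg, was below 0.1. Of the 7 members 5 were called higher after learning and none lower, where 0.639% of all tested genes were called higher and 0.331% lower (0.97% in all). The median log2 fold change was 0.76 over the 7 members and -0.01 over all tested genes. Fos, Atf3, Fosb, Junb and Fosl2 rose, in that order of size, and the groups did not overlap for any of these 5, as for 3.87% of all tested genes with learning higher and 3.12% with it lower.

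Fos was at 1.59, 3.09, 2.21 and 3.12 CPM in the 4 home cage water mice and at 11.6, 12.1, 16.3 and 13.1 CPM in the 4 learning water mice. Every learning mouse lay well above every home cage mouse, and the means were 2.5 ± 0.74 and 13.3 ± 2.14 CPM (SD, n = 4). Fos rose by 2.39 (log2, with a standard error, SE, of 0.20, edgeR adjusted p = 9.21e-06), a 5.22-fold rise that ranked 2 by size among 17830 genes. The log2 value was between 2.25 and 2.52 when each of the 16 mice was left out in turn.

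Fosb, whose transcripts also encode the truncated and long-lived form deltaFosB, was at 5.87, 4.56, 5.34 and 4.81 CPM in home cage water mice and at 9.98, 11.2, 11.4 and 8.40 CPM in learning water mice. The learning mice were all higher, with less spread between mice than for Fos. Fosb rose by 1.0 on the log2 scale (SE 0.11, edgeR adjusted p = 2.07e-04). The counts are per gene, so full-length and truncated transcripts were not separated.

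Junb, the early-induced Jun protein, was at 33.3, 31.2, 34.7 and 27.7 CPM in home cage water mice and at 44.1, 57.5, 65.3 and 47.1 CPM in learning water mice. All 4 learning mice were higher, and they were spread more widely than the home cage mice. Junb rose by 0.76 on the log2 scale (SE 0.12, edgeR adjusted p = 5.27e-03).

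Atf3 was at 0.595, 1.27, 0.792 and 0.994 CPM in home cage water mice and at 1.90, 1.71, 2.72 and 1.89 CPM in learning water mice. The learning mice did not overlap the home cage mice, and 1 of them (replicate 36) was above the rest. Atf3 rose by 1.15 on the log2 scale (SE 0.23, edgeR adjusted p = 0.0384). The call was lost without home cage water replicate 11 (adjusted p = 0.118) or 20 (0.111), or without learning water replicate 36 (0.140).

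Fosl2 was at 35.1, 24.1, 33.9 and 30.9 CPM in home cage water mice and at 37.9, 47.9, 49.6 and 43.9 CPM in learning water mice. The lowest learning mouse, at 37.9 CPM, was next to the highest home cage mouse, at 35.1 CPM. Fosl2 rose by 0.53 on the log2 scale (SE 0.13, edgeR adjusted p = 0.0854). Leaving out single mice kept this call in 8 of 16 cases, with adjusted p up to 0.232.

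Jun and Jund were not called. Jun, the partner of many Fos proteins, was at 82.0, 110, 109 and 77.5 CPM in home cage water mice and at 106, 111, 118 and 123 CPM in learning water mice. The home cage mice spanned a wide range that reached into that of the learning mice, and the log2 fold change was 0.28 (95% interval -0.03 to 0.58, edgeR adjusted p = 0.475). Dentate granule cell markers summed to 404, 628, 579 and 430 CPM in the same home cage water mice. In the same learning water mice they summed to 441, 509, 627 and 670 CPM. Their part in the spread of Jun was not tested. Jund, which binds DNA in resting cells, had means of 83.1 ± 8.11 and 78.6 ± 15.7 CPM, with the lowest learning water mouse at 56.2 CPM, and a log2 fold change of -0.08 (95% interval -0.33 to 0.18).

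**Figure D2:**
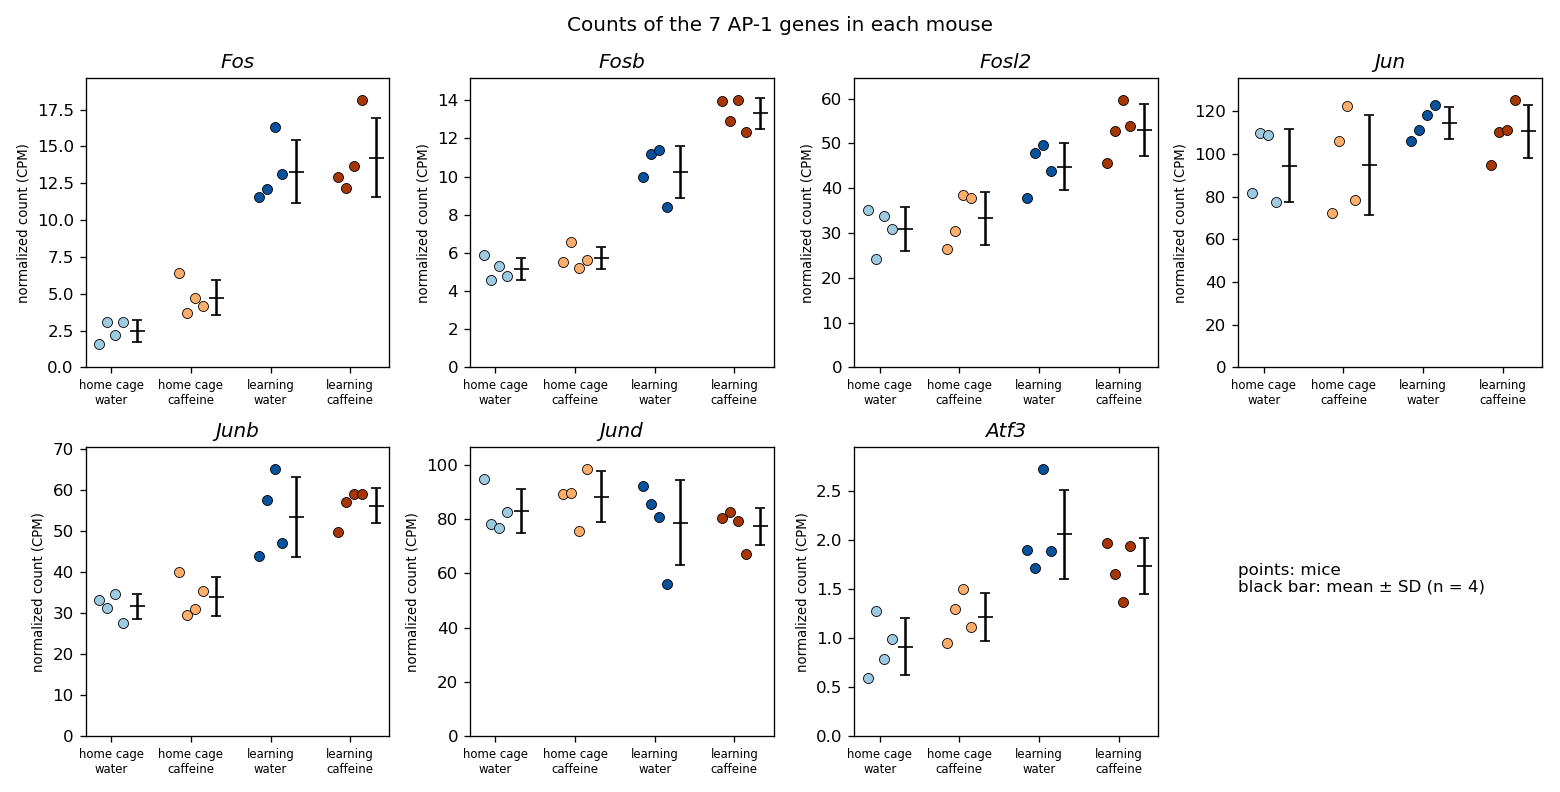
Normalized count (CPM) of each AP-1 gene in each mouse of the 4 groups, points for mice and a black bar for the mean ± SD (n = 4). Within each treatment, Fos, Fosb, Fosl2 and Junb lie higher in the learning than in the home cage mice, Atf3 does so without overlap under water only, and Jun and Jund overlap between all groups.

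The same comparison in caffeine-treated mice gave 4 of 7 members called higher and none lower, where 3.16% of all tested genes were called higher and 2.13% lower (5.28% in all). The median log2 fold change was 0.67 over the members and -0.01 over all tested genes. Fos, Fosb, Junb and Fosl2 rose, and for these 4 the groups did not overlap, as for 5.64% of all tested genes with learning higher and 5.24% with it lower. All 4 stayed called whichever of the 16 mice was left out.

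Fos was at 6.42, 3.71, 4.68 and 4.16 CPM in home cage caffeine mice and at 12.9, 12.2, 13.7 and 18.2 CPM in learning caffeine mice. The groups were apart, and each had 1 mouse above the rest. Fos rose by 1.57 on the log2 scale (SE 0.19, edgeR adjusted p = 5.07e-04), a 2.96-fold rise.

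Fosb was at 5.53, 6.59, 5.22 and 5.61 CPM in home cage caffeine mice and at 14, 12.9, 14 and 12.4 CPM in learning caffeine mice. The mice within each group were close together and the groups were far apart. The log2 fold change was 1.22 (SE 0.11, edgeR adjusted p = 1.37e-05), a 2.33-fold rise that ranked 2 by p among all tested genes.

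Junb was at 40.1, 29.7, 31.1 and 35.5 CPM in home cage caffeine mice and at 49.9, 57.1, 59.1 and 59.0 CPM in learning caffeine mice, a log2 fold change of 0.72 (SE 0.12, edgeR adjusted p = 3.93e-03). Fosl2 was at 26.4, 30.4, 38.5 and 37.8 CPM and at 45.7, 52.8, 59.8 and 53.8 CPM, a log2 fold change of 0.67 (SE 0.13, edgeR adjusted p = 0.0121). For both genes every learning mouse was above every home cage mouse.

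Atf3 was at 0.946, 1.29, 1.5 and 1.12 CPM in home cage caffeine mice and at 1.97, 1.65, 1.36 and 1.94 CPM in learning caffeine mice. Here 1 learning mouse fell within the home cage range, and the log2 fold change of 0.51 (95% interval 0.05 to 0.97) was not called (edgeR adjusted p = 0.218). Jun had a log2 fold change of 0.22 (95% interval -0.08 to 0.53) and Jund one of -0.19 (95% interval -0.44 to 0.06), and neither was called. Over both treatments together, Fos, Fosb, Atf3, Junb and Fosl2 were called higher, where 7.81% of all tested genes were called higher and 6.71% lower (14.5% in all). The averaged log2 fold change was 0.25 for Jun (edgeR adjusted p = 0.137) and -0.13 for Jund (adjusted p = 0.342).

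**Figure D3:**
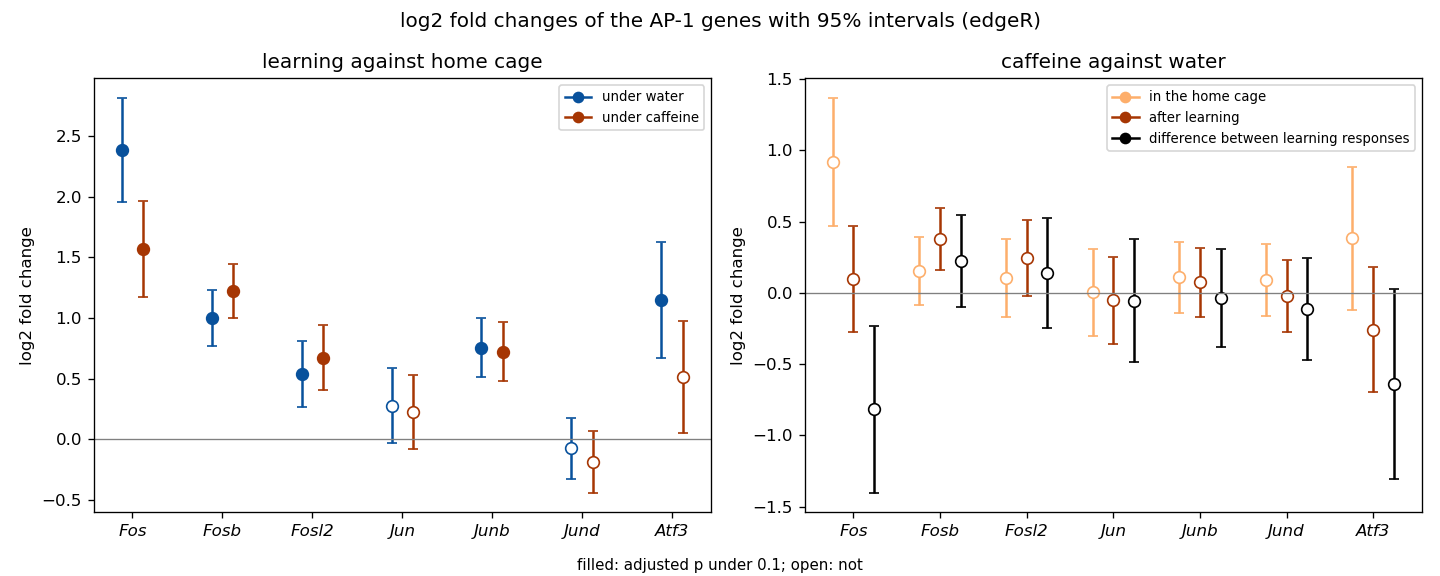
log2 fold changes of the 7 AP-1 genes with 95% intervals from edgeR, for learning against home cage under each treatment (left) and for caffeine against water in each condition with the difference between the learning responses (right). Filled points had an adjusted p under 0.1. The left panel has 5 filled points under water and 4 under caffeine, and the right panel has none.

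Caffeine was then compared with water at rest. No member was called, and 0% of the tested genes were called in either direction by edgeR. Of 17830 genes, 636 had an unadjusted p under 0.05, Fos among the members. That is below the share of 0.05 expected with no effect in any gene. DESeq2 called 19 genes. The 4 home cage caffeine mice, at 3.71 to 6.42 CPM, all had more Fos than the 4 home cage water mice, at 1.59 to 3.12 CPM. Such separation with caffeine higher was found in 0.981% of tested genes, and with caffeine lower in 1% of them. The log2 fold change of Fos was 0.92 (95% interval 0.47 to 1.37, edgeR unadjusted p = 4.52e-04, adjusted p = 0.444), a 1.89-fold difference that ranked 17 by p.

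The call of Fos at rest depended on the method. DESeq2's Wald test called it (adjusted p = 0.0197), as did edgeR with genes of at least 1 count in total kept (adjusted p = 0.0185). The size was similar in both, at 0.92. Without home cage caffeine replicate 2, the mouse with the most Fos at rest, the log2 fold change was 0.73, and no fit that left out a mouse called it. Choroid plexus markers summed to 308, 1156, 924 and 2351 CPM in the 4 home cage water mice whose Fos was 1.59, 3.09, 2.21 and 3.12 CPM, the same order of mice in both. In the 4 home cage caffeine mice they summed to 190, 499, 259 and 230 CPM, where Fos was 6.42, 3.71, 4.68 and 4.16 CPM. There the mouse with the lowest sum had the most Fos and the mouse with the highest sum the least. Over the 8 markers the median of caffeine against water at rest was -1.67 on the log2 scale, and none was called. Their part in the difference was not tested.

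The other members were not called at rest. Fosb had a log2 fold change of 0.16 (95% interval -0.08 to 0.39), Fosl2 0.11 (-0.17 to 0.38), Junb 0.11 (-0.14 to 0.36), Jund 0.09 (-0.17 to 0.34) and Jun 0.00 (-0.30 to 0.31). Atf3, with few reads, had the widest interval, at 0.38 (-0.12 to 0.88). The groups overlapped for each of these 6 genes.

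After learning, caffeine-treated mice were compared with water-treated mice. No member was called, and 0% of the tested genes were called in either direction by edgeR. An unadjusted p under 0.05 was found for 700 of 17830 genes, Fosb among the members. That, too, is below the share of 0.05 expected with no effect in any gene. DESeq2 called 6 genes. Fosb was at 12.4 to 14 CPM in learning caffeine mice and at 8.40 to 11.4 CPM in learning water mice, without overlap, as for 1.25% of tested genes with caffeine higher and 1.35% with it lower. Its log2 fold change was 0.38 (95% interval 0.16 to 0.59, edgeR unadjusted p = 0.00175, adjusted p = 0.999), and DESeq2's Wald test gave an adjusted p of 0.681.

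Fos had a log2 fold change of 0.10 (95% interval -0.27 to 0.47), with 1 learning caffeine mouse above the range of the learning water mice. Fosl2 had 0.24 (-0.02 to 0.51), with 3 learning caffeine mice above that range. Atf3 had -0.26 (-0.69 to 0.18), Junb 0.07 (-0.17 to 0.31), Jun -0.05 (-0.36 to 0.25) and Jund -0.02 (-0.28 to 0.23). These intervals all held 0, and the groups overlapped.

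Whether the learning response itself differed between treatments was tested as an interaction. No member was called, and 0% of all tested genes were called by edgeR. An unadjusted p under 0.05 was found for 648 of 17830 genes, Fos among the members. This count is again below the share of 0.05 expected with no effect in any gene. DESeq2 called 6 genes. For Fos the response under caffeine minus that under water was -0.82 on the log2 scale (95% interval -1.40 to -0.24, edgeR adjusted p = 1.0), and from -0.95 to -0.63 when each mouse was left out. For Atf3 it was -0.64 (-1.31 to 0.03), and for Fosb 0.22 (-0.10 to 0.55). Fosl2 (0.14), Jun (-0.05), Junb (-0.03) and Jund (-0.11) had intervals that held 0. Mean Fos was 13.3 CPM in learning water and 14.2 CPM in learning caffeine mice, against 2.5 and 4.74 CPM in the home cage.

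**Figure D4:**
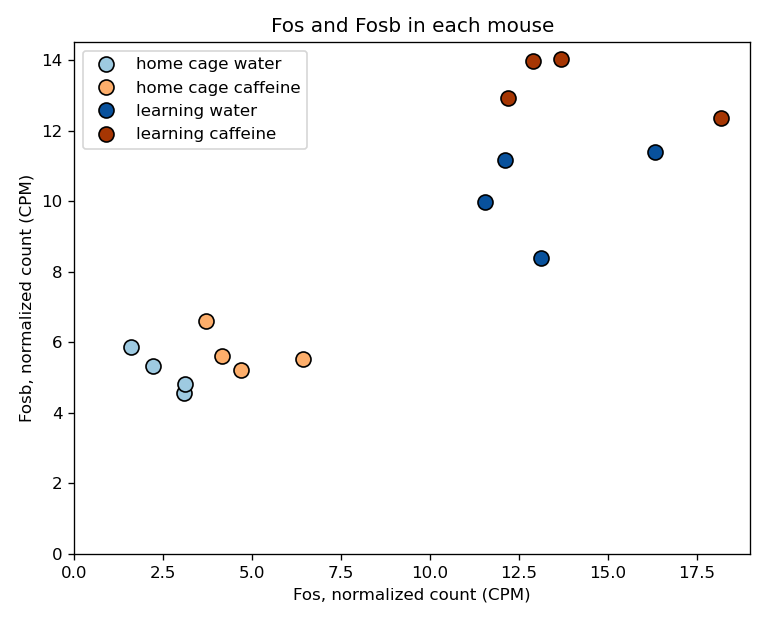
Fosb against Fos in each of the 16 mice (normalized counts, CPM), coloured by group. The water and caffeine mice lie apart along the Fos axis at rest (1.59 to 3.12 against 3.71 to 6.42 CPM) and along the Fosb axis after learning (8.40 to 11.4 against 12.4 to 14 CPM), differences that edgeR did not call and that separate as fully in 0.981% and 1.25% of tested genes.

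The make-up of the Fos family shifted with these changes. The summed level of Fos, Fosb and Fosl2 was 5.09 ± 0.37 CPM per kb in home cage water, 6.37 ± 0.44 in home cage caffeine, 11.9 ± 1.45 in learning water and 13.7 ± 1.33 in learning caffeine mice (SD, n = 4). The ranges of the home cage groups lay apart, at 4.54 to 5.29 and 5.77 to 6.80 CPM per kb. Among the genes summed, Fos alone lay apart in this way, and Fosb and Fosl2 overlapped. Single genes lay apart as fully in 0.981% of tested genes with caffeine higher and in 1% with it lower. Fos made up 21.2%, 31.6%, 47.3% and 44.1% of the sum in the same order of groups, and Fosl2 62.6%, 53.8%, 38.9% and 40.2%. Fosb kept a share of 13.8% to 16.2%. The summed level of Jun, Junb and Jund went from 93.3 ± 4.99 and 97.5 ± 2.81 CPM per kb in the home cage groups to 106 ± 9.42 and 106 ± 4.12 in the learning groups, and Junb's share of it went from 14.8% and 15.2% to 21.8% and 23.2%. The Jun family thus exceeded the Fos family by ratios of 18.4 ± 1.93, 15.4 ± 1.34, 8.99 ± 1.05 and 7.77 ± 0.70. These sums, shares and ratios depend on the exon union lengths used, are a description and were not tested.

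**Figure D5:**
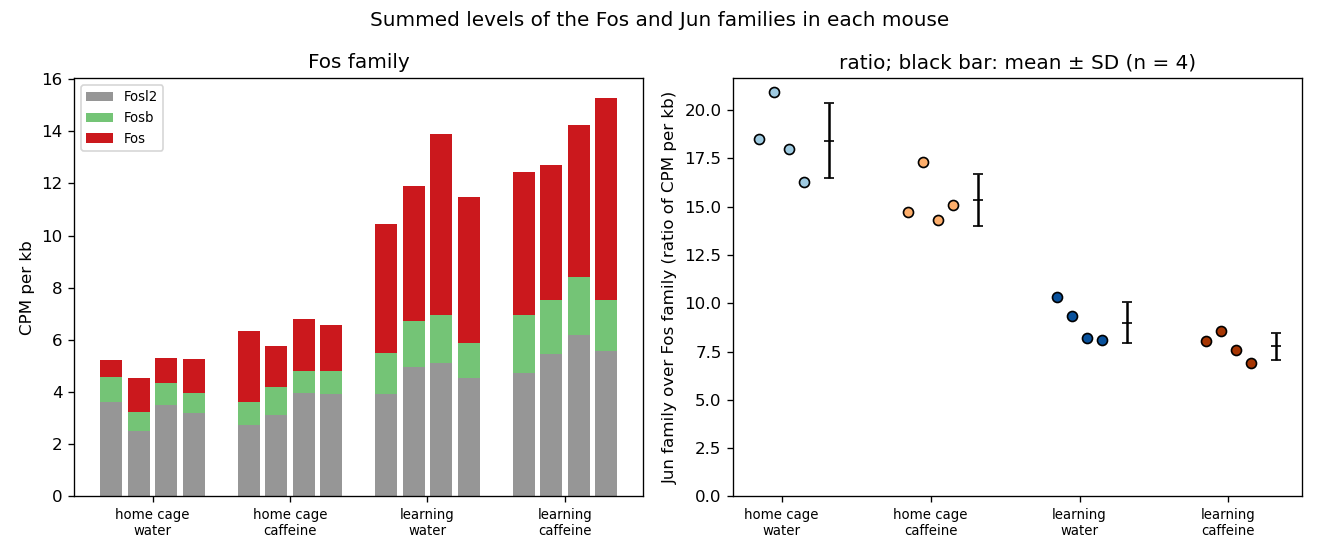
Left, summed level of Fos, Fosb and Fosl2 in each of the 16 mice (CPM per kb, stacked bars). Right, ratio of the Jun family sum to the Fos family sum in each mouse, with mean ± SD (n = 4). The ratio lies at 14.3 to 20.9 in the home cage mice and 6.90 to 10.3 in the learning mice.

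Within a condition, no pair of members was found to vary together after adjustment. All 21 pairs were correlated over the 8 home cage mice and over the 8 learning mice, 42 relations in all, by exact permutation. None passed after Benjamini-Hochberg adjustment (smallest adjusted p 0.624 for Pearson's r and 0.484 for Spearman's rho), and at an unadjusted p under 0.05 there were 1 and 3 of the 42. For r with group means removed there were 4 of the 42, and none passed after adjustment. Fos and Fosb at rest had r = -0.01, and -0.82 with group means removed (exact permutation p = 0.0382, adjusted 0.482). After learning these 2 values were 0.18 and -0.01. The closest pair was Fosl2 and Junb in learning mice (n = 8), with r = 0.80 (exact permutation p = 0.0149, adjusted 0.624) and rho = 0.81 (exact permutation p = 0.0218, adjusted 0.484). Without the 2 mice farthest from the median of Fosl2, r was 0.73, and with group means removed it was 0.87 (exact permutation p = 0.00521, adjusted 0.219). For Jun and Jund the coefficients were negative, with r = -0.71 at rest and -0.64 after learning (exact permutation p = 0.0514 and 0.0951, n = 8, both 0.624 after adjustment), and r = -0.63 and -0.87 without the 2 mice farthest in Jun. Spearman's rho was -0.62 and -0.67 (exact permutation p = 0.115 and 0.0831, adjusted 0.537 and 0.499). With group means removed, r was -0.74 and -0.66 (exact permutation p = 0.0469 and 0.0330, both 0.482 after adjustment).

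The tested genes whose pattern over the 16 libraries was most like a member's were found by the root mean square distance between z scores of log2 CPM, where 0 is an identical pattern. Nearest to Fos were Egr1 (0.322), Dnajb5 (0.333) and Arc (0.343), and nearest to Fosb were Egr4 (0.180), Egr1 (0.229) and Gpt2 (0.283). Egr1 and Egr4 are zinc finger transcription factors of the immediate early class, and Arc is an immediate early gene of the synapse. Nearest to Junb were Arc (0.289), Nr4a1 (0.314) and Egr1 (0.324), and nearest to Fosl2 were Rhobtb2 (0.370), Per1 (0.462) and Slc25a25 (0.484). The neighbours of Jun were Ankrd6 (0.258), Npnt (0.328) and Tshz1 (0.340), and those of Jund included Emc10 (0.327) and Dhdds (0.330). None of these 5 genes was called in either learning comparison. Atf3 had no close non-member, with Aagab nearest at 0.499, then Fam114a2 (0.510) and Prkd2 (0.511). Fos was at 0.494 from Atf3, nearer to it than any other tested gene. With z scores of plain CPM, Arc was no longer among the 3 nearest genes of Fos or Junb, and Kansl1l (0.487) was the nearest non-member of Atf3.

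Of 14 further subunits and relatives of AP-1, 11 were tested. None was called after learning under water and 1, Maff, under caffeine, where 0.97% and 5.28% of all tested genes were called, with medians of 0.04 and 0.09 on the log2 scale. Maff, a small Maf protein without an activation domain, had a log2 fold change of 1.03 under caffeine (SE 0.29, edgeR adjusted p = 0.0646, called in 12 of 16 leave-one-out fits) and 0.46 under water (adjusted p = 0.580). Its level was low, at 0.586 to 1.25 CPM in home cage caffeine and 0.873 to 2.35 CPM in learning caffeine mice, and these ranges overlapped. Averaged over both treatments, Maff (0.75) and Mafg (0.14) were called higher, where 7.81% of all tested genes were, and Nrl (-0.32) was not called.

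Of 27 kinases, factors and ligases that act upstream of Fos and Jun, all were tested. None was called after learning under water and 1 was called higher under caffeine, where 0.639% and 3.16% of all tested genes were called higher, with medians of 0.05 and 0.06. That gene, Mrtfa, a coactivator of SRF, had a log2 fold change of 0.29 (SE 0.05, edgeR adjusted p = 0.00937, called in 16 of 16 fits) under caffeine and 0.20 (adjusted p = 0.119) under water. Averaged over both treatments, 8 were called higher, Srf (0.17), Creb1 (0.23), Mrtfa (0.24), Mapk14 (0.09), Map2k4 (0.11), Rps6ka2 (0.18), Rps6ka3 (0.19) and Itch (0.18), and 1 lower, Fbxw7 (-0.12), where 7.81% of all tested genes were called higher and 6.71% lower. Leaving out single mice kept Srf, Creb1, Mrtfa and Map2k4 called in 16 of 16 fits, Rps6ka3 in 15, Itch in 12, Fbxw7 in 11, and Mapk14 and Rps6ka2 in 7 each. The largest of these 9, 0.24, compares with 1.98 for Fos.

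Of 21 genes known elsewhere as AP-1 targets, 16 were tested. None was called higher in a learning comparison, a count near the share of all tested genes called higher (0.639% under water and 3.16% under caffeine). Penk, the enkephalin precursor, was called lower under caffeine, at -0.36 (SE 0.10, edgeR adjusted p = 0.0550, called in 11 of 16 fits), and had -0.07 under water, where 2.13% and 0.331% of all tested genes were called lower. Mean Penk was 34.5 CPM in home cage water and 40.1 in home cage caffeine mice. It was 32.7 CPM in learning water and 31.2 in learning caffeine mice. Averaged over both treatments, Penk (-0.22, called in 9 of 16 fits) and Plau (-0.43, called in 15), a secreted protease, were called lower, where 6.71% of all tested genes were, and Npy, a neuropeptide, had -0.20 and was not called. The median of the 16 was 0.04 under water and -0.08 under caffeine.

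Markers of other cells were set beside the learning results. Of the 8 choroid plexus markers 4 were called lower in learning water mice and 0 in learning caffeine mice, with medians of -1.64 and -0.64 on the log2 scale. Of 5 microglia markers 0 were called lower under water and 2 under caffeine, and 0.331% and 2.13% of all tested genes were called lower in these comparisons. Their sums were 337 to 385 CPM in home cage water, 343 to 393 in home cage caffeine, 339 to 371 in learning water and 328 to 370 in learning caffeine mice, and none was at 0. No marker of neurons, dentate granule cells, CA1 pyramidal cells, astrocytes, oligodendrocytes, endothelial cells or thalamus was called in either learning comparison. Their medians under water and caffeine included 0.22 and 0.17 for 5 dentate granule cell genes, -0.31 and -0.12 for 5 CA1 pyramidal cell genes and 0.21 and -0.43 for 5 oligodendrocyte genes. The mitochondrial share of counts was 3.55% to 3.89% in home cage water and 3.29% to 3.44% in learning water mice, which did not overlap, and 3.46% to 4.49% and 3.23% to 3.59% in the caffeine groups. The part of these markers and of the mitochondrial share in the changes of Fos, Fosb, Junb and Fosl2, or in the values of Jun, was not tested.

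Jun, Junb and Jund overlap genes on the opposite strand, and whether the counting used the strand is not given in the sources used here, so their counts are uncertain to that extent. Jun shares 232 exon bases with Junos, Junb 173 with Prdx2 and Jund 877 with Gm11175. Mean levels in the 4 groups were 1.0 to 1.30 CPM for Junos, 140 to 150 CPM for Prdx2 and 2.34 to 3.04 CPM for Gm11175, and none of these was called in a learning comparison. Prdx2 had log2 fold changes of -0.06 under water and -0.10 under caffeine after learning. The part of these overlaps in the counts of Jun, Junb and Jund was not tested.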

How the data were processed

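Dorsal hippocampus RNA of 16 mice, 4 per group, was measured. The authors made stranded polyA libraries, mapped 50-base reads to mm10 and deposited raw counts per Ensembl gene, without normalization or pooling. Per the labels' processing notes, the tools were bcl2fastq 2.17.1.14, STAR and HTSeq 0.6.1p1. PCR duplicates were not marked by molecular identifiers, so precision covers counting and mouse spread only.

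Symbols and positions came from GENCODE M21 (35247 genes matched, 81 not). The counts were tested with edgeR 4.0.16 in R 4.3.3 (TMM, filterByExpr over the 4 groups, a mean per group over 16 libraries, quasi-likelihood test, Benjamini-Hochberg adjustment, called at an adjusted p under 0.1). No pooled per-sample columns were left out. Replicates of a group differed by more than sampling noise (chi-square per degree of freedom 5.66 to 33.3 over 24 pairs). The test was checked on simulated counts. Members and gene lists were chosen with earlier results of these data known. Genes named beside the members were those of each list called in any comparison, filled up to 3 by smallest p, the 3 genes of most similar pattern with a mean log2 CPM of at least 1 (prior count 2), of which 1 is not reported here, and genes that overlap a member. Levels per kb used exon union lengths. Motifs were searched on both strands of RefSeq promoter windows.

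Alternatives were DESeq2 1.42.0 (size factors in edgeR, and the Wald test), filters of 1 count over all libraries or of 10 in every library, robust empirical Bayes, an adjusted p under 0.05, the 8 libraries of each comparison alone, and leaving out each mouse.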

Additional observations from a re-analysis of the deposited data

How the results depend on the processing

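No paired analysis was possible because the mice of different groups share no replicate number in the labels. Fos, Fosb and Junb were called in both learning comparisons in every fit that left out a mouse, as was Fosl2 under caffeine. Depth limits Atf3, with as few as 15 reads.

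The number of members called for learning under water fell from 5 to 3 with the 8 libraries of that comparison alone, where Fosl2 (adjusted p = 0.111) and Atf3 (adjusted p = 0.103) were lost, and was 3 to 5 over the fits that left out a mouse, with 3 without home cage water replicate 11 or 20 or learning water replicate 36. The cause was not tested. The number called for caffeine at rest rose from 0 to 1, Fos, with DESeq2's Wald test and with the filter of at least 1 count. Jun was called in the averaged learning response under that filter (adjusted p = 0.0619), with DESeq2 (0.0950) and in 4 of 16 fits that left out a mouse.

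Over all genes, learning under water gave 173 calls, and 85 with 8 libraries, 70 at an adjusted p under 0.05, 427 with DESeq2, 290 with the filter of at least 1 count and 37 to 312 with a mouse left out. Learning under caffeine gave 942 calls, and 617, 449 and 1561 under the first 3 of these settings and 382 to 1231 with a mouse left out. Caffeine at rest gave 0, and 19 with DESeq2, 34 with the filter of at least 1 count, 1 with robust empirical Bayes and 0 to 33 with a mouse left out. Caffeine after learning gave 0, and 6 with DESeq2, 8 with that filter and 0 to 1 with a mouse left out. The difference between learning responses gave 0, and 6, 9 and 0 to 1. The averaged response gave 2590, and 1384 at an adjusted p under 0.05.

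Directions turned only for changes that were not called, when a mouse was left out. The log2 fold change of Jund for learning under water ranged from -0.16 to 0.056, and that of Jun for caffeine at rest from -0.15 to 0.11. For caffeine after learning, Fos ranged from -0.032 to 0.22, Jun from -0.11 to 0.019, Junb from -0.0076 to 0.19 and Jund from -0.15 to 0.063. The difference between learning responses ranged from -0.16 to 0.10 for Jun and from -0.12 to 0.076 for Junb. Of the 952 refitted values of the members, 909 kept direction and call, 14 lost a call, 8 gained one and 21 turned.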
